A study of Gallus gallus with 27 samples.

Results

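The regions described here are the ATAC-seq intervals on chicken chromosomes 11 to 33, which include the microchromosomes of the karyotype. They were taken by chromosome name alone, without random or unplaced contigs, and number 27927 of the 140062 intervals counted, or 19.9%. They lie on 21 chromosomes, and chromosome 12 holds the most, with 3084, while chromosome 30 holds 5. All but 1 of the 140062 intervals are 200 bp wide. The intervals of chromosomes 1 to 5, the longest of the numbered chromosomes by the span of their intervals, number 74495 and serve as the comparison. Chromosomes 6 to 10 hold 21199 more.

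ATAC-seq marks open chromatin with a transposase that cuts accessible DNA and tags it for sequencing. The cells were sorted by flow cytometry from dissected vagal regions of wild-type chick embryos, the hindbrain level whose neural crest is known to populate the heart and gut. Embryos were electroporated at Hamburger-Hamilton stage 8 to 9 with the citrine reporters NC2 and E2, enhancers known as background to belong to the crest genes FOXD3 and SOX10. Cells were collected at stage 25 (HH25) and at stage 18 (HH18). At each stage there are 3 libraries of double-positive cells (NC2+, E2+), 3 of E2-only cells (NC2-, E2+) and 3 of negative cells (NC2-, E2-), 18 libraries in 6 groups. The labels name citrine for both reporters, and nothing in the sources used says how the signals were distinguished. Electroporation is known to reach only some cells, so the negative gate can hold crest cells without reporter signal. No gene annotation of the build was used, so cell identity could not be checked on marker genes and rests on the labels.

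Bird karyotypes join a few large macrochromosomes to many small microchromosomes. The small ones are known to be rich in genes, CpG islands and GC, to recombine at high rates and to lie toward the interior of the nucleus. As background, chromosome 16 carries the major histocompatibility complex and the nucleolar organizer, chromosome 25 the epidermal differentiation complex with feather keratin genes, and chromosome 27 the HOXB cluster.

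Library totals ran from 2609023 to 5559179 reads at HH25 and from 992341 to 6976050 at HH18, where the lowest belongs to negative replicate 2. The TMM scaling factors of the HH18 double-positive and E2-only libraries were 0.87 to 0.914, and those of the other 4 groups 1.01 to 1.13. They enter the calls and CPM below, not the ratios, and their part in the HH18 calls is given by the counts under library totals. The lowest deposited value was 1 in every library and may stand for 0 reads. In HH18 negative replicate 2 this value filled 18.8% of the intervals on chromosomes 11 to 33 and 25% of those on chromosomes 1 to 5. The labels name biological replicates, and p-values measure the spread between them.

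The intervals were packed more closely on chromosomes 11 to 33 than on the large chromosomes. Their density was 158 per Mb of the span from the first to the last interval, against 122.5 per Mb on chromosomes 1 to 5, with 146 per Mb on chromosomes 6 to 10. The median gap between neighbours was 4591 bp, against 5621 bp on chromosomes 1 to 5. Among the 19 chromosomes that hold at least 20 intervals, density ran from 103 per Mb on chromosome 16 to 186 per Mb on chromosome 24. On chromosomes 1 to 5 it ran from 113.5 to 135.1 per Mb.

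Their levels were more even than on the large chromosomes, with a higher middle and a lower top. Of the 27927 intervals, 26848 passed the filter on low counts (96.1%), against 71392 of 74495 on chromosomes 1 to 5 (95.8%), and both levels and calls below are over those that passed. The median level over the 18 libraries was 5.19 CPM (read counts over the TMM-scaled library total) against 4.57 CPM on chromosomes 1 to 5. The 99th percentile was 40.3 CPM against 47, and the highest interval stood at 152 CPM against 3603 CPM. Of the members, 37.9% fell in the highest of 3 equal classes of all tested intervals and 27.9% in the lowest, against 32.1% and 34.5% on chromosomes 1 to 5. A level of 100 CPM was exceeded by 7 members (0.0261%) and by 60 intervals of chromosomes 1 to 5 (0.084%).

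The 5 highest members were open in every group. Chromosome 11 from 5078006 to 5078206 stood at 150 ± 8.19 CPM in HH25 double-positive cells, 116 ± 1.51 in HH25 E2-only and 179 ± 38.2 in HH25 negative cells, and at 160 ± 7.81, 153 ± 14.2 and 155 ± 13.3 CPM in the same 3 populations at HH18 (SD, n = 3 each). Chromosome 13 holds the next 3, from 7910282 to 7910482, from 12904024 to 12904224 and from 10124139 to 10124339, with means over the 18 libraries of 138, 117 and 109 CPM. The fifth, on chromosome 14 from 6454845 to 6455045, averaged 107 CPM.

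To compare the chromosome classes within a library, the mean reads per interval of chromosomes 11 to 33 were divided by those of chromosomes 1 to 5. This ratio does not depend on library scaling. Because the chromosomes were chosen with earlier results of these data known, ratios are given with the spread between libraries and no p-value.

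At both stages the mean ratio was lowest in double-positive, intermediate in E2-only and highest in negative cells. At HH25 it was 1.08, 1.065 and 1.03 in the 3 double-positive libraries, 0.999, 1.14 and 1.13 in E2-only and 1.066, 1.26 and 1.22 in negative libraries. All 3 populations overlapped one another at this stage, and replicate 1 of both the E2-only and the negative cells lay below the others of its group. Of the 3 same-numbered pairs, the E2-only library lay below the negative one in 3 and the double-positive library in 2. At HH18 it was 0.8035, 0.811 and 0.812 in double-positive libraries, 0.985, 0.921 and 0.916 in E2-only and 1.046, 1.13 and 1.15 in negative libraries. No 2 of the 3 populations overlapped at this stage, and the double-positive libraries were the only ones of the 18 with a ratio below 0.9. By the median reads per interval, HH18 double-positive libraries, at 0.917 to 1.0, still lay below both other populations, while E2-only libraries, at 1.11 to 1.25, overlapped negative libraries, at 1.21 to 1.4.

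**Figure D1:**
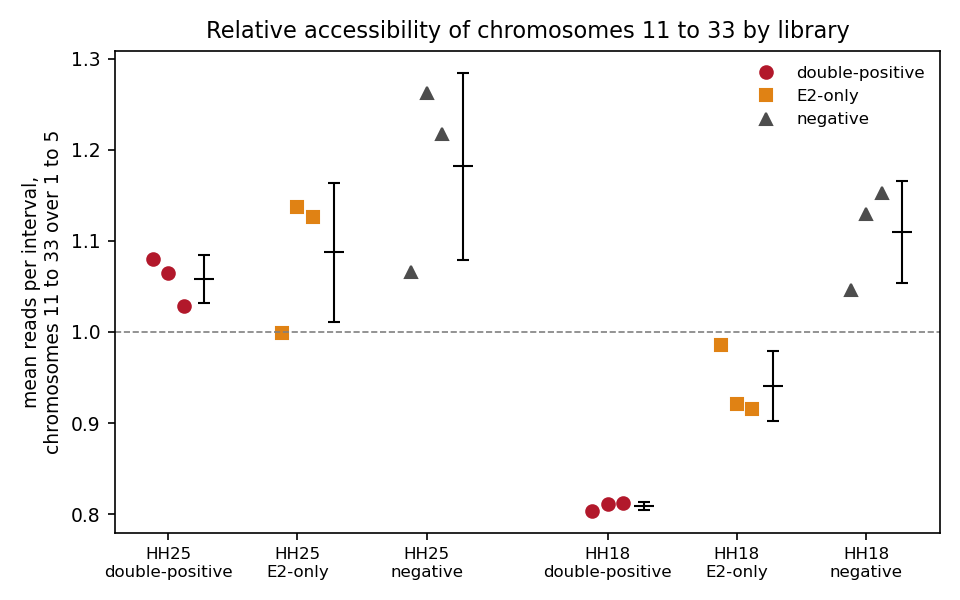
Ratio of mean reads per interval on chromosomes 11 to 33 to that on chromosomes 1 to 5 (y axis, no unit) for each library, by stage and population (x axis). Points are libraries, bars the mean ± SD of 3, and the dashed line equal means. The 3 HH18 double-positive libraries lie between 0.8035 and 0.812, below all 15 others.

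On the log2 scale, the difference of double-positive from negative cells was -0.16 at HH25 (a 0.897-fold ratio) and -0.455 at HH18 (a 0.7295-fold ratio). The difference of E2-only from negative cells was -0.12 at HH25 and -0.24 at HH18. Double-positive cells differed from E2-only cells by -0.04 at HH25 and by -0.22 at HH18. Between stages, HH25 double-positive cells stood 0.39 above HH18 double-positive cells with no overlap, HH25 E2-only cells 0.21 above HH18 E2-only cells with no overlap, and HH25 negative cells 0.09 above HH18 negative cells with overlap. Averaged over the stages, double-positive cells differed from negative cells by -0.31 and from E2-only cells by -0.13, and E2-only cells differed from negative cells by -0.18. Averaged over the populations, HH25 differed from HH18 by 0.23. Each average kept its sign when any 1 library was left out. With the median in place of the mean reads per interval, the stage difference was 0.0854, and E2-only libraries, at 1.05 to 1.235 at HH25 and 1.11 to 1.25 at HH18, overlapped between stages. They overlapped as well by the mean of log2 CPM, at 1.02 to 1.12 at HH25 and 1.02 to 1.06 at HH18.

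In reads, the members held 20.6% ± 0.448 of the total in HH25 double-positive, 21.3% ± 0.985 in HH25 E2-only and 22.65% ± 1.32 in HH25 negative libraries, and 17.3% ± 0.0473, 19.4% ± 0.584 and 21.5% ± 0.714 in the same populations at HH18 (SD, n = 3 each). In sorted bulk libraries, fewer cells with an open site and less opening per cell cannot be told apart.

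Among the strongest intervals of a library, the mean share of the members was also lowest in HH18 double-positive cells. Of the 1000 intervals with the most reads, 15.6% ± 1.47 were on chromosomes 11 to 33 in HH25 double-positive cells, 15.7% ± 1.93 in HH25 E2-only and 18.2% ± 1.86 in HH25 negative cells. At HH18 double-positive cells had 8.93% ± 0.115, E2-only cells 9.87% ± 1.85 and negative cells 15.5% ± 2.3 (SD, n = 3 each). HH18 double-positive libraries ran from 8.8% to 9% and HH18 negative libraries from 13.2% to 17.8%, without overlap, while the 3 populations of HH25 overlapped, as did both reporter-positive populations of HH18. Of the HH18 E2-only libraries, replicates 2 and 3 stood at 8.8% and replicate 1 at 12%. Among the 10000 highest the HH18 shares were 13.6%, 16.6% and 21.7% in the same order. For comparison, the members are 19.9% of all intervals.

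The chromosomes did not behave alike. Chromosomes 11, 12 and 13, the longest of the range, stayed close to the large chromosomes in every group, whereas many shorter ones stood farther from them. On chromosome 11, HH25 ratios were 1.02, 1.02 and 0.957 in double-positive and 0.976, 1.09 and 1.05 in negative libraries, and HH18 ratios were 0.948, 0.927 and 0.937 in double-positive and 1.01, 1.04 and 1.04 in negative libraries. The HH18 populations did not overlap there, and the difference of double-positive from negative cells was -0.14 on the log2 scale. Chromosome 15 stood at 0.7585, 0.748 and 0.774 in HH18 double-positive, 0.992, 0.933 and 0.87 in HH18 E2-only and 1.04, 1.166 and 1.165 in HH18 negative libraries. These 3 populations did not overlap on it.

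The lowest mean ratio of HH18 double-positive cells among the 19 was on chromosome 24, at 0.618, 0.661 and 0.65, against 0.955, 1.04 and 1.07 in HH18 negative libraries. Chromosome 24 is also the most densely covered of the 19. At HH25 its ratio was 1.01, 0.954 and 0.915 in double-positive and 0.998, 1.165 and 1.12 in negative libraries, which overlapped. Chromosome 33 stood at 0.694, 0.687 and 0.6905 in HH18 double-positive, 1.19, 1.117 and 1.123 in HH18 E2-only and 1.22, 1.35 and 1.47 in HH18 negative libraries. There E2-only libraries lay below negative libraries without overlap at HH18. Their difference was -0.23 on the log2 scale, close to the -0.24 of all members together. Double-positive cells differed from E2-only cells by -0.73 there, against -0.22 for all members together.

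Chromosome 16, with 64 intervals, showed the widest range of the 19. Its ratio was 1.74, 1.69 and 1.67 in HH25 double-positive, 1.44, 1.88 and 1.95 in HH25 E2-only and 1.6, 2.05 and 2.32 in HH25 negative libraries. At HH18 it was 0.67, 0.838 and 0.692 in double-positive, 1.01, 0.841 and 1.05 in E2-only and 1.52, 1.445 and 1.86 in negative libraries. Double-positive cells of HH25 and HH18 did not overlap and differed by 1.22 on the log2 scale. The HH18 difference between double-positive and negative cells, -1.13, was the largest of the 19 chromosomes.

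By their means, chromosomes 25, 27 and 28 followed the order of all members together. At HH25 the populations overlapped on them, except double-positive and negative libraries on chromosome 27. Chromosome 12 broke the order, with double-positive above E2-only means at HH25 (1.016 against 0.985) and HH18 (0.931 against 0.9145). Chromosome 14 broke it at HH25 (1.07 against 1.05). On chromosome 25 the mean ratio was 1.36 in HH25 double-positive, 1.4 in HH25 E2-only and 1.57 in HH25 negative cells, and 0.7004, 1.08 and 1.38 in these populations at HH18. On chromosome 27 the HH25 means were 1.09, 1.21 and 1.38, and the HH18 means 0.706, 0.967 and 1.27, in the same order of populations. On chromosome 28 the HH25 means were 1.33, 1.415 and 1.62, and the HH18 means 0.745, 1.02 and 1.35. HH25 double-positive cells thus stood above 1 on chromosomes 25, 27 and 28 and HH18 double-positive cells below it. Chromosomes 30 and 32, with 5 and 15 intervals, had ratios of 2.84 and 3.91 in HH25 double-positive, 3.19 and 4.61 in HH25 negative, 1.13 and 1.7 in HH18 double-positive and 2.7 and 3.66 in HH18 negative cells.

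**Figure D2:**
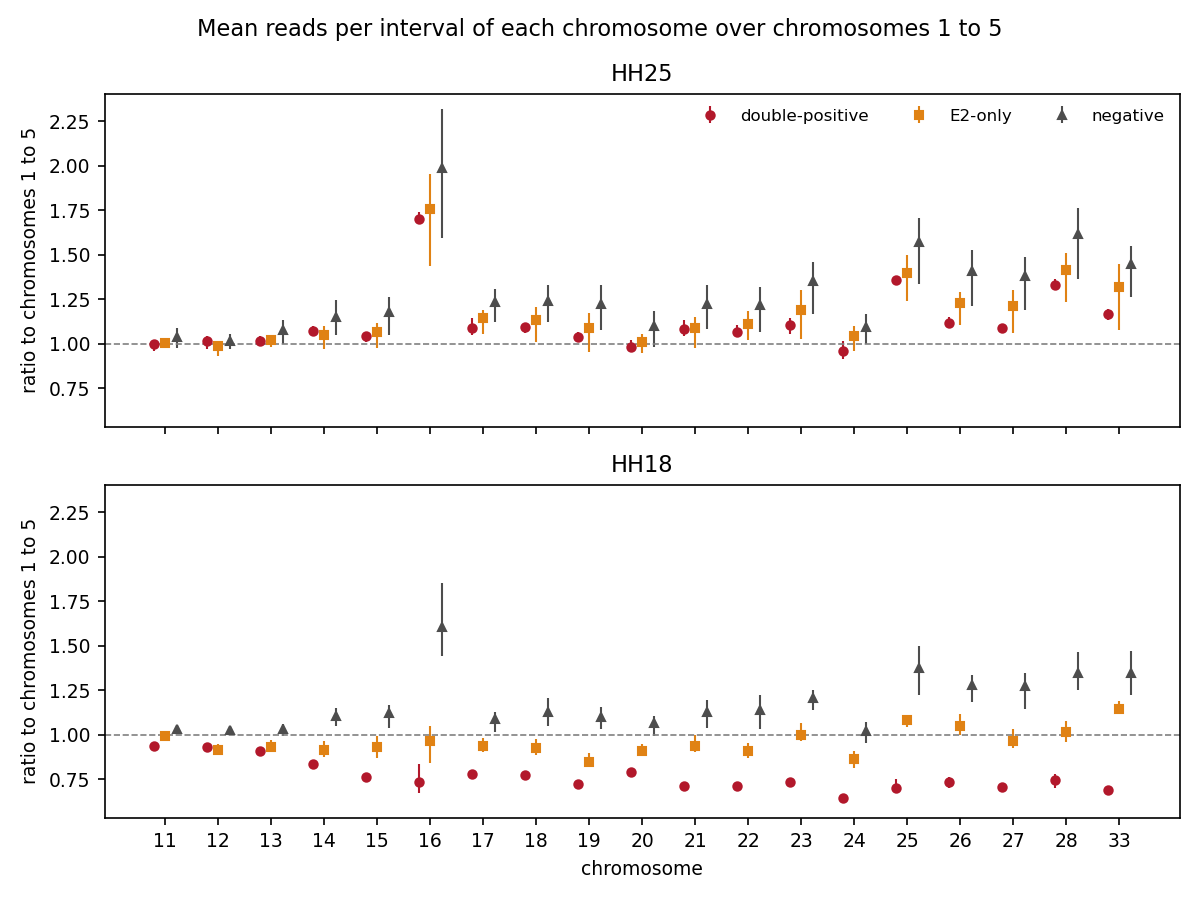
Mean reads per interval of each chromosome over chromosomes 1 to 5 (y axis, no unit) for the 19 chromosomes with at least 20 intervals (x axis), HH25 above HH18. Points are means of 3 libraries and lines their lowest and highest value. At HH18 the double-positive means run from 0.643 on chromosome 24 to 0.937 on chromosome 11, all below 1.

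Counted over the 19 chromosomes, double-positive libraries lay wholly below negative libraries on 6 chromosomes at HH25 and on all 19 at HH18. On chromosomes 1 to 10 the libraries of these populations also failed to overlap on 30.0% of chromosomes at HH25 (1 lower, 2 higher). At HH18 the share was 80.0% (6 lower, 2 higher), so non-overlap was also common on the larger chromosomes. Chromosomes 1 to 5 are part of their own denominator, so their ratios cannot all be lower. Shares over chromosomes 1 to 10 are therefore not a like background. At both stages the 2 higher were chromosomes 2 and 3, both in the denominator. Outside it, only chromosome 6 was lower at HH25. At HH18 chromosomes 6, 8, 9 and 10 were lower and chromosome 7 overlapped. E2-only libraries lay wholly below negative libraries on 0 chromosomes at HH25 and on 19 at HH18. Of chromosomes 1 to 10, 10.0% did not overlap at HH25 (1 lower) and 50% at HH18 (4 lower, 1 higher). By the median reads per interval, the HH18 count was 3 for E2-only and 14 for double-positive against negative cells. Double-positive libraries lay wholly below E2-only libraries on 0 chromosomes at HH25 and on 17 at HH18. Of chromosomes 1 to 10, 10.0% did not overlap at HH25 (1 higher) and 50% at HH18 (4 lower, 1 higher). Such a count can only stay or rise when a library is left out, since fewer libraries are then compared. The HH25 counts rose when replicate 1 was left out. Without HH25 negative replicate 1 they were 18 for double-positive and 19 for E2-only against negative cells, and without HH25 E2-only replicate 1 the count for double-positive against E2-only cells was 15. Without HH25 double-positive replicate 1 the counts were 11 against negative and 1 against E2-only cells, and without its replicate 3 the count against E2-only cells was also 1. Chromosomes 1 to 10 were not counted by the median or without a library. Those counts therefore do not set the members against the larger chromosomes.

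HH25 double-positive libraries lay wholly above HH18 double-positive libraries on all 19 chromosomes, while 70.0% of chromosomes 1 to 10 did not overlap (5 higher, 2 lower). Here too, chromosomes 1 to 5 are part of their own denominator and cannot all be higher. The 2 lower were chromosomes 2 and 3, both in the denominator. Outside it, chromosomes 8, 9 and 10 were higher and chromosomes 6 and 7 overlapped. For E2-only cells HH25 lay wholly above HH18 on 11 chromosomes, while 50% of chromosomes 1 to 10 did not overlap (2 higher, 3 lower). This count of 11 became 0 by the median reads per interval and 3 by the mean of log2 CPM, and it became 18 without HH25 E2-only replicate 1 and 17 without HH18 E2-only replicate 1. For negative cells the stages overlapped on all 19, while 30.0% of chromosomes 1 to 10 did not overlap (1 higher, 2 lower). Without HH25 negative replicate 1 the count was 18, and without HH18 negative replicate 3 it was 3. For these other settings too, chromosomes 1 to 10 were not counted.

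The differences ran with the length of chromosome that the intervals span. Over the 19 chromosomes, the HH18 difference between double-positive and negative cells had a Pearson correlation of 0.917 and a Spearman correlation of 0.97 with the log10 span of the intervals. It was -0.14 on chromosome 11, with a span of 20.2 Mb, and -0.96 on chromosome 33, with a span of 1.64 Mb. On chromosomes 6, 7, 8, 9 and 10, outside the range, this HH18 difference was -0.07, -0.02, -0.15, -0.09 and -0.25. A lower ratio in HH18 double-positive cells was thus not confined to the members. Without chromosome 16 the Pearson correlation was 0.928. At HH25 it was 0.601, and 0.759 without chromosome 16. For E2-only against negative cells it was 0.57 at HH25 and 0.767 at HH18, and 0.59 and 0.538 without chromosome 16. For double-positive against E2-only cells it was 0.473 at HH25 and 0.779 at HH18, and 0.72 and 0.963 without chromosome 16. The difference of HH25 from HH18 double-positive cells ran the other way, at -0.931, and -0.895 without chromosome 16. These values describe 19 points that share the same libraries, depth and denominator. Base composition was not available.

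**Figure D3:**
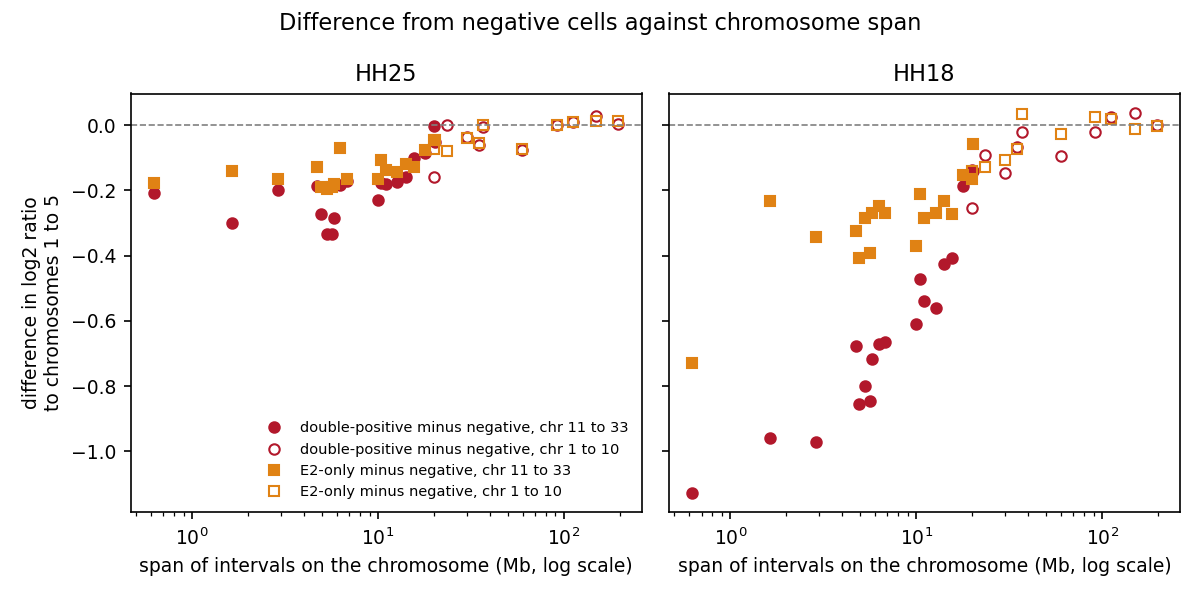
Difference in the log2 ratio to chromosomes 1 to 5 (y axis) between double-positive or E2-only and negative cells against the span of the intervals on each chromosome (x axis, Mb, log scale), HH25 left of HH18. Filled points are chromosomes 11 to 33 with at least 20 intervals and open points chromosomes 1 to 10. At HH18 the double-positive differences run from -0.14 on chromosomes 11 and 12 to -1.13 on chromosome 16.

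Position along the chromosome was examined after these values had been seen. On the 9 chromosomes of the range that have intervals at least 4 Mb from both ends of their span (11 to 15 and 17 to 20), the mean reads of intervals within 1 Mb of an end were divided by those of intervals at least 4 Mb away. This end ratio was 1.08, 1.06 and 1.07 in HH25 double-positive, 1.03, 1.09 and 1.1 in HH25 E2-only and 1.096, 1.19 and 1.17 in HH25 negative libraries. At HH18 it was 0.8396, 0.862 and 0.843 in double-positive, 0.976, 0.9647 and 0.937 in E2-only and 1.12, 1.13 and 1.13 in negative libraries. Double-positive libraries lay below negative libraries at both stages, and the 3 populations did not overlap at HH18. The intervals were pooled over the 9 chromosomes, and longer ones hold more of the inner intervals. Position and chromosome length are therefore not separated in this ratio.

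On the large chromosomes too, both reporter-positive populations had lower mean end ratios than negative cells. Over chromosomes 1 to 5 the end ratio was 1.05 ± 0.0211 in HH25 double-positive, 1.05 ± 0.0494 in HH25 E2-only and 1.18 ± 0.0855 in HH25 negative cells, and 0.755 ± 0.0147, 0.803 ± 0.0377 and 1.09 ± 0.024 in these populations at HH18 (SD, n = 3 each). The mean difference of double-positive from negative cells over both stages was -0.26 on the log2 scale on the 9 chromosomes and -0.35 on chromosomes 1 to 5, and low end ratios were thus seen in both classes.

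**Figure D4:**
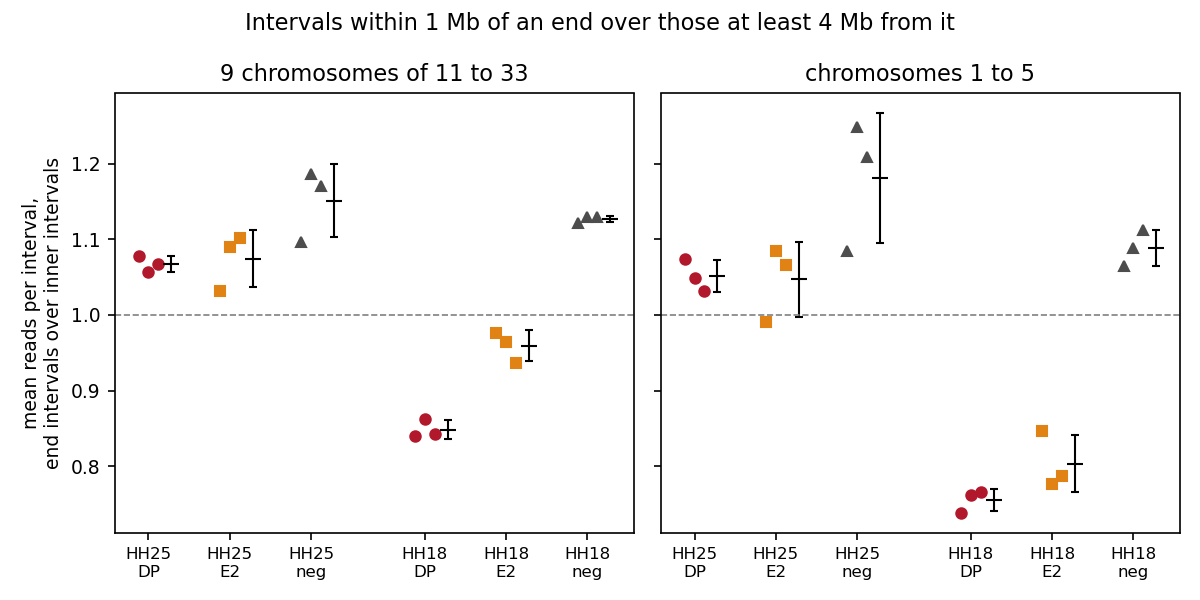
End ratio of each library (y axis, no unit), the mean reads of intervals within 1 Mb of an end over those at least 4 Mb from it, for 9 chromosomes of 11 to 33 and for chromosomes 1 to 5, by stage and population (x axis). Points are libraries and bars the mean ± SD of 3. HH18 double-positive libraries lie between 0.84 and 0.862 in the left panel and between 0.738 and 0.765 in the right.

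Single intervals were tested with edgeR's quasi-likelihood test over all 134020 tested intervals of the genome, with Benjamini-Hochberg adjustment, and calls are those with an adjusted p under 0.05. In every sentence below, higher and lower calls refer to the population or stage named first. Background shares are those over all tested intervals in the fit as reported. Counts of calls under another scaling, filter or model, on thinned counts or without a library come without such shares. They therefore do not set the members against the genome.

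HH25 double-positive cells were more accessible than HH25 negative cells at 2650 members and less accessible at 2969. That is 9.87% and 11.1% of those tested, against 14.5% and 9.79% over all intervals (24.3% in either direction) and 15.2% and 10% on chromosomes 1 to 5. The median log2 fold change of the members was -0.12, against -0.01 over all intervals. Lower calls outnumbered higher ones on 15 of the 19 chromosomes. Higher calls were scarcest on chromosome 27, at 3.39%, and most frequent on chromosome 11, at 13.6%, below the background on every chromosome. With libraries thinned to the lowest total, which leaves 12041 members in the test, higher calls numbered 1094 and lower calls 997, so the direction with more calls turned. It turned as well when any 1 of 16 of the 18 libraries was left out, all but HH25 negative replicates 1 and 3; without HH18 negative replicate 1, for example, 2869 were higher and 2488 lower. TMM takes 1 library as its base, which was HH25 negative replicate 1 in the fit as reported. Of the 18 refits without a library, the base was an HH18 double-positive library in 15. In the other 3, those without an HH25 negative library, it was an HH25 double-positive library. In each refit more intervals also passed the filter, 135911 to 136859 against 134020. Why the direction turned was not tested. The ratio to chromosomes 1 to 5 does not use TMM scaling.

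HH18 double-positive cells were more accessible than HH18 negative cells at 3363 members (12.5%) and less accessible at 5161 (19.2%), against 18.3% and 13.7% over all intervals (32.0% in either direction) and 21% and 11% on chromosomes 1 to 5. The median log2 fold change was -0.335, against -0.05 over all intervals and 0.11 on chromosomes 1 to 5. Lower calls outnumbered higher ones on 16 of 19 chromosomes, all but 11, 12 and 13. On chromosome 16, 26 of 63 tested intervals were lower and 0 higher. On chromosome 33, 96 of 295 were lower and 9 higher, and on chromosome 25, 126 of 377 were lower and 18 higher. Scaling by library totals moves the median of all intervals to -0.27 and gave 2871 higher and 7449 lower calls.

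**Figure D5:**
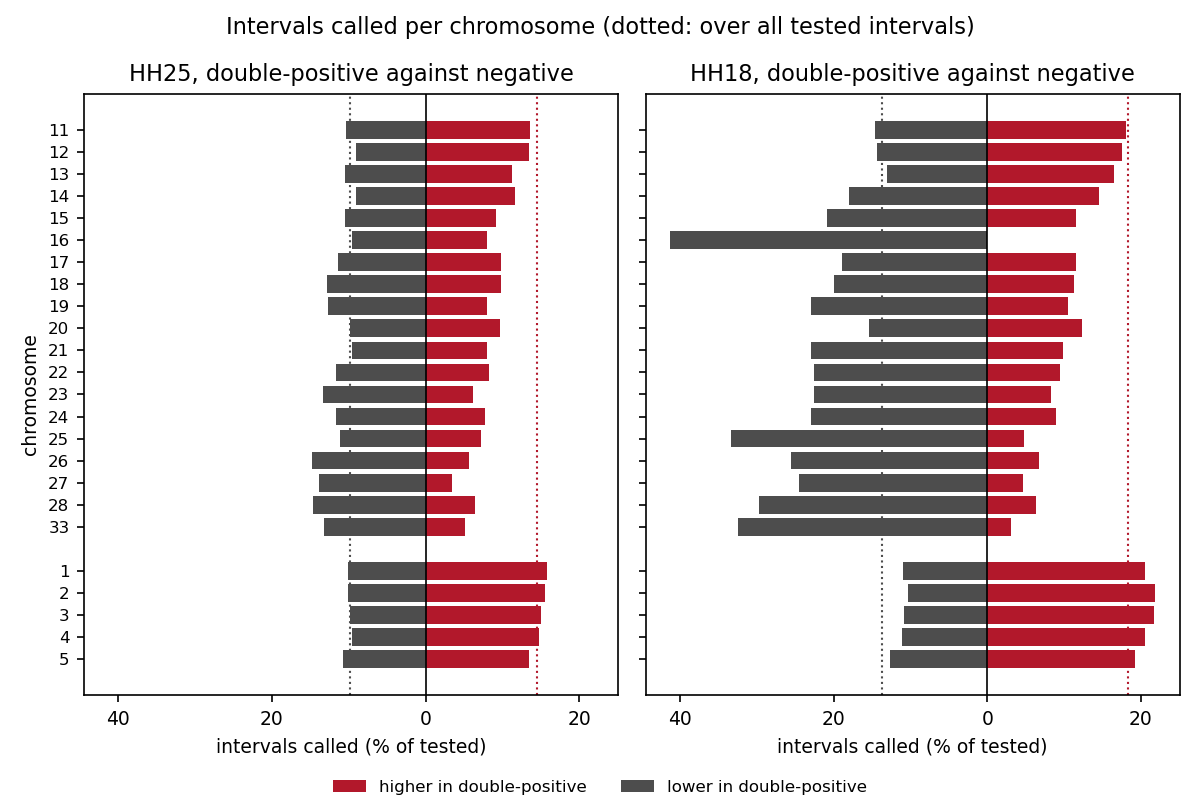
Share of tested intervals called (x axis, %) on each chromosome (y axis) for double-positive against negative cells, HH25 left of HH18. Bars to the right are higher in double-positive cells and bars to the left lower, with dotted lines at the shares over all tested intervals. At HH18 the left bars grow to 32.5% on chromosome 33 and 41.3% on chromosome 16.

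The HH18 median was below 0 in each of the 3 classes of abundance. Among members in the lowest, middle and highest class, the median log2 fold change of double-positive over negative cells was -0.31, -0.295 and -0.38, against 0.04, 0.14 and 0.14 on chromosomes 1 to 5. With crowding the medians were -0.34, -0.33, -0.34 and -0.36 for members with 0 to 1, 2 to 3, 4 to 6 and at least 7 other intervals within 10 kb. With the distance to the nearer end of the span they were -0.54 within 1 Mb, -0.47 at 1 to 2 Mb, -0.32 at 2 to 4 Mb and -0.14 farther in. On chromosomes 1 to 5 the medians at these distances were -0.38, -0.23, -0.07 and 0.13. Members were pooled over chromosomes, and short chromosomes enter only the nearer bins. Distance and chromosome length are therefore not separated here.

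HH25 E2-only cells were higher than HH25 negative cells at 860 members (3.2%) and lower at 1560 (5.81%), against 5.35% and 5.14% over all intervals. Lower calls outnumbered higher ones on 18 of 19 chromosomes. Scaled by library totals alone, 1158 were higher and 1188 lower. In total 2420 members were called (all tested intervals in either direction: 10.5%), which fell to 1576 without HH25 E2-only replicate 1 (796 higher, 780 lower) and to 1461 without HH25 negative replicate 2.

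HH18 E2-only cells were higher than HH18 negative cells at 4502 members (16.8%) and lower at 4431 (16.5%), against 19.9% and 14.8% over all intervals, 34.7% in either direction. The median log2 fold change was -0.12, and lower calls outnumbered higher ones on 10 of 19 chromosomes. The counts of both directions were nearly equal, and lower calls were the more numerous when any 1 of 12 of the 18 libraries was left out and on thinned counts (1710 higher, 1936 lower). Scaling by library totals moves the median of all intervals to -0.23 and gave 3524 higher and 6503 lower calls.

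Between the reporter-positive populations, HH25 double-positive cells were higher than HH25 E2-only cells at 1705 members (6.35%) and lower at 737 (2.75%), against 8.49% and 3.17% over all intervals. Median-of-ratios scaling gave 1423 higher and 1054 lower, and library totals 1354 higher and 1240 lower. Without HH25 E2-only replicate 2 the 2442 calls (all tested intervals in either direction: 11.7%) became 1620. At HH18, double-positive cells were higher than E2-only cells at 3513 members (13.1%) and lower at 5538 (20.6%), against 17.7% and 17.9% over all intervals, 35.7% in either direction. On chromosome 33, 110 of 295 members were lower and 10 higher in HH18 double-positive cells, and on chromosome 12, 488 of 2971 were lower and 563 higher. The population comparisons of a stage share libraries, so their counts are given side by side only.

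Calls of the same kind at both stages can be compared, since the stages share no library. They come from 1 fit with 1 filter and a shared estimate of the spread, so the lists are not independent. Of the members higher in double-positive than in negative cells, 1893 were called at both stages, which is 71.4% of the HH25 list and 56.3% of the HH18 list. Of those lower in double-positive cells, 1394 were called at both stages, 47% of the HH25 list and 27% of the HH18 list. On chromosomes 1 to 5 the shares were 74.5% and 53.9% for higher and 36.8% and 33.6% for lower calls. For E2-only against negative cells, 175 higher calls were shared, 20.3% of the HH25 list and 3.89% of the HH18 list, and 764 lower calls, 49% and 17.2%. On chromosomes 1 to 5 these shares were 24.2% and 7.07% for higher and 46.8% and 18.1% for lower calls. For double-positive against E2-only cells 1144 higher calls were shared, 67.1% of the HH25 list and 32.6% of the HH18 list, and 148 lower calls, 20.1% and 2.67%. On chromosomes 1 to 5 they were 74.5% and 33.2% for higher and 20.2% and 4.27% for lower calls. Some HH18 calls were called in the opposite direction at HH25. For double-positive against negative cells these were 17 higher and 41 lower members of the HH18 lists. They were 52 and 95 for E2-only against negative and 30 and 94 for double-positive against E2-only cells. On chromosomes 1 to 5 the same numbers were 121 and 90, 116 and 376, and 149 and 234.

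Across stages, double-positive cells of HH25 were higher than those of HH18 at 5302 members (19.7%) and lower at 3299 (12.3%), against 16.3% and 18.4% over all intervals (34.7% in either direction) and 13% and 20.8% on chromosomes 1 to 5. The median log2 fold change was 0.2, against -0.175 on chromosomes 1 to 5. On chromosome 16, 29 of 63 members were higher and 0 lower. On chromosome 28, 268 of 822 were higher and 37 lower, and on chromosome 25, 150 of 377 were higher and 13 lower. Scaling by library totals moves the median of all intervals to 0.14 and gave 6928 higher and 2469 lower calls.

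E2-only cells of HH25 were higher than those of HH18 at 7170 members (26.7%) and lower at 6984 (26%), against 27.6% and 29.2% over all intervals, 56.8% in either direction. Scaling by library totals moves the median of all intervals to 0.32 and gave 9848 higher and 5351 lower calls. The direction with more calls turned under 4 of the 6 other settings (median-of-ratios factors, no filter, the replicate block and DESeq2) and when any 1 of the 3 HH25 negative libraries was left out. Those libraries are not in this comparison, and in these 3 refits the TMM base was an HH25 double-positive library. The set of intervals that passed the filter changed as well, and why the direction turned was not tested. Without a filter on low counts, for example, 7100 were higher and 7221 lower. Between stages, the replicate block compares the fitted levels of replicate 1, not the group means. Negative cells of HH25 were higher than those of HH18 at 3155 members (11.8%) and lower at 2689 (10%), against 12.1% and 11.9% over all intervals. Without HH18 negative replicate 1 the 5844 calls (all tested intervals in either direction: 24.0%) became 3614 (1721 higher, 1893 lower). With DESeq2, 2194 were higher and 2323 lower, and with the replicate block 1761 were higher and 1934 lower. The direction with more calls turned under these 3 settings and also without HH25 negative replicate 2 or 3.

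The single members named next are those with the largest fold changes among called intervals above the median abundance whose libraries do not overlap, and those printed were picked from that list after their values were seen. Adjusted p-values are from the edgeR test. No gene is assigned to them.

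Several members were most open in double-positive cells at both stages. Chromosome 17 from 3262883 to 3263083 averaged 18.95 CPM in HH25 double-positive, 3.35 in HH25 E2-only and 2.06 in HH25 negative cells. It had 18.1, 22 and 15.7 CPM in HH18 double-positive libraries, 2.87, 2.17 and 0.222 in HH18 E2-only and 0.536, 1 and 0.342 in HH18 negative libraries. Its log2 fold change over negative cells was 5.06 (SE 0.557, adjusted p = 3.1e-13) at HH18. Reads in the HH18 negative libraries numbered 1 or 2, at the floor of the counting. Chromosome 13 from 4638685 to 4638885 averaged 16.4 CPM in HH25 double-positive and 2.08 in HH25 negative cells, and had 21.3, 17.9 and 20.4 CPM in HH18 double-positive and 0.268, 2 and 0.342 in HH18 negative libraries (a log2 change of 5.16 with SE 0.545 and adjusted p = 5e-14). There too, reads in the HH18 negative libraries numbered 1 or 2. Chromosome 11 from 8207998 to 8208198 had 14.8, 10.8 and 19 CPM in HH18 double-positive libraries, while all 3 HH18 negative libraries stood at the lowest value of 1 read. The ratio of the summed reads, scaled for depth, was 37.9, with a 95% counting interval of 12.7 to 186. HH18 E2-only cells were intermediate there, at 3.51, 5.64 and 6.42 CPM. This and the later counting intervals take the deposited value of 1 as 1 read. Where it stands for 0 reads, the ratio and its limits do not hold.

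Among the HH25 calls, chromosome 11 from 15103277 to 15103477 had 17.4, 16.6 and 19.5 CPM in double-positive and 0.33, 0.797 and 1.4 in negative libraries (a log2 change of 4.46 with SE 0.408 and adjusted p = 1.8e-16), while HH18 double-positive cells averaged 40.4 CPM and HH18 negative cells 1.98. A second interval of chromosome 11, from 17174473 to 17174673, was called for both reporter-positive populations of HH25 against negative cells. Levels were 11.7, 8.29 and 8.98 CPM in HH25 double-positive, 4.17, 1.605 and 1.575 in HH25 E2-only and 0.495, 0.199 and 0.233 in negative libraries, with log2 fold changes of 4.74 (SE 0.557, adjusted p = 9.1e-12) and 2.8 (SE 0.71). The E2-only call had an adjusted p of 0.0037, which became 0.087 without HH25 E2-only replicate 1. Reads in the HH25 negative libraries numbered 3, 1 and 1 there, at the floor of the counting. Chromosome 12 from 4407737 to 4407937 showed graded levels, at 18.5, 24.5 and 12.8 CPM in HH25 double-positive, 10, 6.82 and 12.8 in HH25 E2-only and 1.49, 1.59 and 1.17 in HH25 negative libraries, and averaged 48.6 CPM in HH18 double-positive cells.

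Chromosome 24 from 1705285 to 1705485 distinguished HH25 double-positive from both other populations, at 25.6, 20.2 and 8.98 CPM, against 2.92, 2.61 and 0.9 in HH25 E2-only and 1.16, 0.598 and 0.934 in HH25 negative libraries. Its log2 fold changes were 2.99 (SE 0.355, adjusted p = 4.6e-10) over E2-only and 4.22 (SE 0.412, adjusted p = 3.8e-15) over negative cells. At HH18 it was also highest in double-positive cells, with means of 9.935 CPM against 1.27 in E2-only and 1.16 in negative cells. Chromosome 19 from 2793438 to 2793638 had 27.1, 31.7 and 25.1 CPM in HH25 double-positive and 3.76, 5.22 and 3.6 in HH25 E2-only libraries (a log2 change of 2.71 with SE 0.28 and adjusted p = 6.2e-12).

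Other members were open in negative cells and nearly closed in both reporter-positive populations. Chromosome 19 from 1189501 to 1189701 had 1.13, 0.36 and 0.257 CPM in HH25 double-positive, 0.626, 0.602 and 0.45 in HH25 E2-only and 13.5, 23.3 and 10.3 in HH25 negative libraries, and it was named at HH18 as well, with 0.328, 0.373 and 0.365 CPM in double-positive and 21.5, 20 and 7.52 in negative libraries. The log2 fold change of double-positive over negative cells was -4.79 at HH25 (SE 0.517, adjusted p = 2.2e-13). At HH18 all 3 double-positive libraries stood at 1 read, and the ratio of summed reads of negative over double-positive cells was 45 (95% counting interval 15.0 to 221). Chromosome 14 from 12498457 to 12498657 had 1.13, 0.36 and 0.513 CPM in HH25 double-positive and 11.1, 30.9 and 18.7 in HH25 negative libraries. Chromosome 12 from 699453 to 699653 had 0.209, 1 and 0.225 CPM in HH25 E2-only and 11.1, 25.7 and 18.7 in HH25 negative libraries (a log2 change of -5.12 with SE 0.461 and adjusted p = 3.8e-16), and means of 0.543 and 18.3 CPM in these populations at HH18. No reporter-positive library reached the lowest negative library of its stage in these comparisons. For the named calls this was a condition of their selection, not a result. Reads in the lower group of these HH25 calls numbered 1 to 5, at or near the floor of the counting.

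A few members stood highest in HH18 E2-only cells. Chromosome 24 from 6176509 to 6176709 had 0.657, 1.12 and 0.365 CPM in HH18 double-positive and 22, 21.2 and 18.8 in HH18 E2-only libraries (a log2 change of -4.81 with SE 0.462 and adjusted p = 4e-16), with means of 1.37, 1.49 and 1.85 CPM in HH25 double-positive, E2-only and negative and 3.82 in HH18 negative cells. Chromosome 18 from 2482251 to 2482451 had 0.209, 0.401 and 1.12 CPM in HH25 E2-only and 44.4, 54.6 and 51.4 in HH18 E2-only libraries (a log2 change of -6.38 with SE 0.368 and adjusted p = 9.4e-30). Chromosome 20 from 7159892 to 7160092 had 0.209, 0.401 and 0.225 CPM in HH25 E2-only and 33.9, 29.1 and 31.2 in HH18 E2-only libraries (a log2 change of -6.66 with SE 0.427 and adjusted p = 8.3e-27), with a ratio of summed reads of HH18 over HH25 of 114 (95% counting interval 44.2 to 421). Reads in those HH25 libraries numbered 1 or 2, at the floor of the counting. They numbered 2, 3 and 1 in HH18 double-positive libraries on the chromosome 24 interval and 1, 2 and 5 in HH25 E2-only libraries on the chromosome 18 interval. Counting intervals cover counting error only, since amplified reads are not independent molecules.

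The reverse pattern, low in every population at HH18 and open at HH25, was seen on chromosome 15 from 8048768 to 8048968. It had 20, 17.3 and 15.7 CPM in HH25 double-positive libraries, while all 3 HH18 double-positive libraries stood at the lowest value of 1 read (ratio of summed reads 49.1, 95% counting interval 16.5 to 240.0). E2-only cells averaged 25.3 CPM at HH25 and 0.523 at HH18, and negative cells 16.5 and 0.969. Chromosome 28 from 2080368 to 2080568 averaged 24.4 CPM in HH25 E2-only and 0.49 in HH18 E2-only cells (a log2 change of 5.87 with SE 0.44 and adjusted p = 1.6e-22). Chromosome 19 from 1861765 to 1861965 averaged 11.4 CPM in HH25 negative and 0.871 in HH18 negative cells (a log2 change of 4.35 with SE 0.561 and adjusted p = 1.2e-09). Reads in those HH18 E2-only and HH18 negative libraries numbered 1 or 2, at the floor of the counting.

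For each population comparison, the bin with the largest share of calls in 1 direction was taken from 1501 bins of 100 kb with at least 10 tested intervals. It is described here as the top of that ranking, and whether calls cluster along the chromosomes was not tested. The bin of chromosome 11 from 5400000 to 5500000 led for HH25 double-positive against negative cells, with 10 of 17 members higher and 0 lower. Over all tested intervals 14.5% were higher. Its mean level was 7.92 ± 0.648 CPM in HH25 double-positive and 3.42 ± 0.225 in HH25 negative cells, and 16.4 ± 1.1 in HH18 double-positive and 4.87 ± 0.678 in HH18 negative cells (SD, n = 3 each). For HH18 double-positive against negative cells the bin with the largest share was the first of chromosome 32. There 11 of 15 members were lower (13.7% over all tested intervals), at 14.6 ± 0.324 and 24.6 ± 1.73 CPM.

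On chromosome 21 from 1400000 to 1500000, 13 of 17 members were higher in HH18 E2-only than in HH18 negative cells and 0 lower. Over all tested intervals 19.9% were higher. The levels of the bin were 22 ± 0.138 and 8.91 ± 1.05 CPM. That bin averaged 4.74 CPM in HH25 E2-only and 9.54 in HH18 double-positive cells. On chromosome 15 from 9300000 to 9400000, 19 of 24 members were lower in HH18 double-positive than in HH18 E2-only cells (17.9% over all tested intervals). Its levels were 7.78 ± 0.789 and 19 ± 0.117 CPM. In HH25 E2-only against negative cells the leading bin was chromosome 14 from 12100000 to 12200000, with 8 of 17 members lower (5.14% over all tested intervals). In HH25 double-positive against E2-only cells it was chromosome 11 from 12800000 to 12900000, with 4 of 10 higher (8.49% over all tested intervals).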

How the data were processed

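The authors deposited read counts per interval, called raw in the name of their table. The build galGal5 and the tools HOMER 4.7, MACS2 and Bowtie 1.0.0 are named, without roles, in the submitters' processing notes. Tagmentation took 20 min and amplification 11 cycles, with 40 bp reads from both fragment ends, per the labels' protocols. The choice of intervals, the handling of duplicates, any shift of read ends and whether coordinates count from 0 or 1 have no statement in the labels and notes used here. Another 9 columns, whose names show a different stage from any label, were left aside, which leaves the HH10 groups not analysed here.

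Counts were fitted in R 4.3.3 with edgeR 4.0.16 (filterByExpr, TMM, robust quasi-likelihood fit with 1 mean per group over 18 libraries). Each standard error is the absolute log2 fold change over the square root of F. Ratios between chromosome classes were taken on the deposited counts of all intervals. The planned exact permutation tests of these ratios were computed, but no p from them is given, because the members and lists were chosen with earlier results of these data known. Named members are the 5 highest, and for each comparison the 3 (between stages 2) higher and lower called intervals of largest fold change with non-overlapping libraries and above the median abundance, of which those printed were picked after their values were seen, and the 100 kb bin with the largest share of calls in 1 direction. The split by distance to the ends and the mean of log2 CPM (pseudocount 2) were chosen after seeing the data. Alternatives were library totals, median-of-ratios factors, no filter, DESeq2 1.42.0, thinning, a replicate block, leaving out each library, and for ratios other summaries. The floor of 3 counts corresponds to 0.479 CPM at the highest TMM-scaled library total and to 3.004 CPM at the lowest, and it covers counting error only. The fit and the ratio code were tested on simulated data. No genome or annotation of galGal5 was used, so sequences, GC content and genes are not reported.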

Additional observations from a re-analysis of the deposited data

How the results depend on the processing

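The averaged ratio differences kept their sign and moved by less than the spread between libraries except for 3 values. With the mean of log2 CPM, an alternative chosen after seeing the data, double-positive against negative cells gave -0.21 and HH25 against HH18 0.108, and with the median count HH25 against HH18 gave 0.0854. Counts of chromosomes without overlap became 10 for HH25 double-positive against negative and 1 for HH25 against HH18 negative cells with all intervals outside chromosomes 11 to 33 as the base. With the median count they became 1 for HH25 E2-only against negative, 3 for HH18 E2-only against negative and 0 for HH25 against HH18 E2-only cells, and with log2 CPM the last was 3. A count of chromosomes without overlap can only stay or rise when a library is left out. Chromosomes 1 to 10 were not counted under these other settings. Leaving out single libraries, the counts ran from 6 to 18 for HH25 double-positive and 0 to 19 for HH25 E2-only against negative cells. They ran from 0 to 15 for HH25 double-positive against E2-only cells. For HH25 against HH18 they ran from 11 to 18 for E2-only and 0 to 18 for negative cells. Calls ran from 1461 to 2420 for HH25 E2-only against negative, 1620 to 2515 for HH25 double-positive against E2-only and 3614 to 6011 for negative cells of HH25 against HH18. The cause was not tested.

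Thinning every library to the lowest total left fewer intervals in the test. Calls then numbered 2091 for HH25 and 4746 for HH18 double-positive against negative, 464 for HH25 and 3646 for HH18 E2-only against negative, and 707 for HH25 and 3540 for HH18 double-positive against E2-only cells. Between stages they numbered 3960 for double-positive, 5096 for E2-only and 1941 for negative cells. DESeq2 called 1209 for HH25 E2-only against negative and 1501 for HH25 double-positive against E2-only cells. Counts of calls in this section come without the shares over all tested intervals under the same setting. They therefore do not set the members against the genome.

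Replicate numbers showed little pairing over all groups: deviations of same-numbered libraries correlated between -0.0301 and 0.103, over 0.1 in 1 of 18 pairs. Same-numbered HH25 E2-only and negative libraries stood at 0.103, 0.0635 and 0.0228, above all their pairs of other numbers, at -0.0816 to 0.017. Deviations were taken from each group's own mean, so high same-number values push those of other numbers down. Pairs of other numbers are therefore no independent background. With the replicate number as a block, the population counts stayed within 1.5 times. Between stages the block sets the fitted level of replicate 1 against that of replicate 1, not the group means. Its stage calls, 5211 for double-positive and 3695 for negative cells, thus belong to a different comparison. The blocked ratio differences, such as -0.31 for double-positive against negative cells, equal the unblocked ones by arithmetic with 3 libraries per group. They say nothing on pairing.

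Among refits of the named calls with another setting, 283 kept the call and 1 lost it. That was chromosome 11 from 17174473, E2-only against negative cells of HH25, on thinned counts. When single libraries were left out, 862 refits kept the call and 2 lost it, that same one and the lower call of chromosome 18 from 8418588 in HH25 double-positive against E2-only cells without HH25 double-positive replicate 3 (adjusted p = 0.076 by edgeR).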
